A study of Rattus norvegicus with 22 samples.

Results

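The left kidneys of 12 PKD/Mhm (Cy/+) rats were compared here, out of 22 rats of the series for which RNA sequencing data were analysed. The 6 rats of the ASC i.p. group, labelled IP_ADSC, had received human adipose-derived stromal cells (ASC) by intraperitoneal injection, and the 6 rats labelled Control were untreated. All 12 were male, heterozygous for the Cy mutation and 8 months old at the end of the experiment. The ASC i.p. rats were given 2000000 cells per injection, monthly over 6 months. Both groups therefore carried the cystic mutation, and no non-cystic kidney was part of the comparison. Untreated means that no injection is named for these rats, so the effect of the cells and the effect of repeated injection cannot be told apart. RNA came from whole kidney tissue that was snap-frozen before perfusion, so blood was still in the vessels. The remaining 10 rats, 6 treated with ASC i.v. and 4 with ASC-derived CM, were not compared, but entered the fit, where they share in the estimate of the spread, the scaling and the filter on low counts.

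The PKD/Mhm (Cy/+) rat carries a mutation of Anks6, the gene of SamCystin, a protein of the inversin compartment of the primary cilium. Cysts in this strain arise mainly from the proximal tubule, the part of the nephron that takes back glucose, amino acids and phosphate from the filtrate by means of mitochondrial energy. Its early part (S1 and S2) and its straight late part (S3) use different transporters. The filter in front of it is made of podocytes and fenestrated endothelium, and behind it lie the thick ascending limb, the distal tubule and the collecting duct with its principal and intercalated cells. Each of these segments has marker genes, which give a reading of the segment in RNA of the whole kidney.

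For each rat the data held 17334 genes, each with an estimated number of reads and with TPM. TPM divides that number by transcript length and scales it to a total. The TPM of the listed genes summed to 959754 to 967100 in ASC i.p. rats and to 961398 to 966855 in untreated rats. The total count per rat was 12444227 to 13959331 after ASC i.p. (median 12915591) and 12454983 to 14552261 in untreated rats (median 12932207). The 10 most abundant genes took 5.04% to 5.88% of the counts in the ASC i.p. rats and 5.10% to 5.79% in the untreated rats. Levels of 1 gene are given as CPM, its count relative to the TMM-scaled total of the rat, which makes rats but not genes comparable. The level of a list of genes in a rat is the mean log2 CPM of its tested members. Animal numbers are those of the sample titles. The ASC i.p. rats were numbered 5, 6, 7, 15, 16 and 17, and the untreated rats 1, 12, 18, 22, 23 and 24. What these numbers stand for (litter, enrolment or cage) is not given in the labels.

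The tissue expressed the defining markers of a kidney in both groups. Umod (uromodulin, the main product of the thick ascending limb) averaged 1729 TPM in untreated and 2381 TPM in ASC i.p. rats. Aqp2, the vasopressin-regulated water channel of principal cells, averaged 763 and 711 TPM, and Podxl (podocalyxin, the charged coat of podocyte foot processes) 47.8 and 35 TPM. Markers of neighbouring tissue were low. Psca was the most abundant urothelial marker at 12.9 TPM in untreated rats, and Cyp11a1 the most abundant adrenal marker at 17.1 TPM. Anks6 itself (Entrez 362515) ranged from 50.7 to 75.7 CPM after ASC i.p. (median 59.9) and from 53.7 to 73.4 CPM in untreated rats (median 62.1). The ranges overlapped, with a log2 fold change of -0.02 ± 0.14 (SE).

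The first question of the comparison was whether any gene differed between kidneys of ASC i.p. and untreated rats. Among 12867 genes tested in edgeR (quasi-likelihood test, Benjamini-Hochberg adjustment), 0 genes (0%) passed the threshold of 0.05, and the smallest adjusted p was 0.771. DESeq2 called 0 of 15266 genes, with a smallest adjusted p of 0.843 and 723 genes below 0.05 before adjustment. Without adjustment, edgeR gave 500 genes (3.89%) a p below 0.05, of which 225 (1.75%) were higher and 275 (2.14%) lower after ASC i.p. The middle of the distribution was close to no difference. The median log2 fold change over all genes tested was -0.014, 46.2% of the genes were higher, and 90% of them had values between -0.34 and 0.40. The median standard error was 0.13. Large differences were mostly upward, with 187 genes (1.45%) above a log2 fold change of 1 and 21 genes (0.163%) below -1, together 1.62% of the genes. All values given below are therefore descriptions of differences that did not pass the adjusted test. In whole-kidney RNA, fewer cells of a type and less RNA per cell cannot be told apart.

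Several ASC i.p. rats stood apart from the others, and the group was more variable than the untreated group. The SD of log2 CPM over the 6 rats was larger after ASC i.p. in 70.4% of the genes, with a median SD of 0.227 against 0.169. This share was 63.8% without rat 6 and 72.8% without rat 17, the lowest and highest values on leaving out 1 ASC i.p. rat. The first principal component of the 500 most variable genes held 61.9% of their variance. ASC i.p. rats 5 and 7 lay at one end (36.48 and 32.53) and untreated rat 1 at the other (-31.92), with ASC i.p. rat 16 next to it (-23.61). Rats of the same group thus lay at both ends of the component. Animal number and group were also entangled, since ASC i.p. rats 5, 6 and 7 had low numbers while only rat 1 of the untreated group was numbered below 12. Results are also given for rats numbered 12 or higher, 3 ASC i.p. against 5 untreated rats. This cut was chosen after seeing the data. It leaves out ASC i.p. rats 5, 6 and 7, on which several of the differences below rest, and untreated rat 1. Values nearer to 0 in the remaining rats are therefore a description and no independent check.

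The late proximal tubule (S3) held the largest difference of all nephron segments. All 8 S3 marker genes were higher after ASC i.p., with a median log2 fold change of 1.13 (2.19-fold), against 46.2% of genes and a median of -0.014 over all genes tested. None of the 8 passed the adjusted test, and none had a p below 0.05 without adjustment. The level of the list was 4.67 to 7.59 after ASC i.p. (6.31 ± 1.09, SD, n = 6) and 4.22 to 6.49 in untreated rats (5.41 ± 0.85, SD, n = 6). ASC i.p. rats 5 (7.59) and 7 (7.40) lay above every untreated rat, while the other 4 ASC i.p. rats fell within the untreated range.

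To show where the letters of proximal tubule factors occur, the 250 bases upstream of the start of 2 S3 genes with large differences and of Slc34a1, an early proximal tubule gene, are printed here from the RefSeq promoter table of the rat assembly GRCr8. Slc3a1 lies at chr6:15394750-15394999 on the minus strand, Slc22a7 at chr9:22045248-22045497 on the plus strand and Slc34a1 at chr17:9238984-9239233 on the minus strand. Capitals mark CAAAGTCCA, a core of the HNF4 motif, or its reverse complement TGGACTTTG, and GTTAAT, a half-site of the HNF1 motif, or its reverse complement ATTAAC. HNF4 and HNF1 are transcription factors of proximal tubule identity.
Slc3a1: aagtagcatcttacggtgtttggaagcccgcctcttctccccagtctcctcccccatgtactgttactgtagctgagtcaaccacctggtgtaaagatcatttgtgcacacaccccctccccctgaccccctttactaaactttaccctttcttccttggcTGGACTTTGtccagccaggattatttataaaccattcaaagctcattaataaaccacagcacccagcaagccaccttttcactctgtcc
Slc22a7: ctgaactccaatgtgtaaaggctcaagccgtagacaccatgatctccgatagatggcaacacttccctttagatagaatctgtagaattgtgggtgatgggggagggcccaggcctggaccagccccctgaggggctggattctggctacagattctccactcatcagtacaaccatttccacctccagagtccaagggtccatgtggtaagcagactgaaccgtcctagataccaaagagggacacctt
Slc34a1: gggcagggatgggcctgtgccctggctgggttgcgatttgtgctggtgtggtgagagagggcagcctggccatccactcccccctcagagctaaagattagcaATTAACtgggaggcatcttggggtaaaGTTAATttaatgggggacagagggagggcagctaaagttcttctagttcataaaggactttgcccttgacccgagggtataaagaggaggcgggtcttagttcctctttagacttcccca
Slc3a1 was the single gene among 6 S3 promoters in the table with the HNF4 letters, which occur in 0.331% of 27457 promoters of this length. The HNF1 letters were in 0 of the 6 S3 promoters, in 3 of 19 early proximal tubule promoters (Slc34a1, Slc6a19 and Slc22a8) and in 0 of 11 podocyte promoters, against 6.46% of all promoters. Both strands were searched and the motifs do not overlap each other. A match describes the letters only, and a window without them says nothing about the factors.

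Slc3a1, the heavy chain of the cystine and basic amino acid carrier of the brush border, ranged from 293 to 4213 CPM after ASC i.p. (median 1272) and from 223 to 1519 CPM in untreated rats (median 547). Its log2 fold change was 1.34 ± 0.68 (SE). Rats 5 (4213 CPM) and 7 (3708 CPM) were above all untreated rats, and rat 16 (293 CPM) was below all untreated rats except rat 1.

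Slc7a13, a light chain that pairs with Slc3a1 in S3, had the largest difference of the list. Its level was 37.0 to 2483 CPM after ASC i.p. (median 534) and 12.6 to 638 CPM in untreated rats (median 113), a log2 fold change of 1.98 ± 1.1 (SE). The highest and lowest rats were those named for Slc3a1, with rat 17 (648 CPM) just above the highest untreated rat, so that the groups overlapped.

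Ggt1, the brush border enzyme that cleaves glutathione, was at 278 to 2290 CPM after ASC i.p. (median 797) and 323 to 857 CPM in untreated rats (median 430). The log2 fold change was 1.0 ± 0.52 (SE). Rats 5, 7 and 17 were above the untreated range and rat 16 was below it.

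Rats 5 and 7 were also the highest for the organic anion and lactate carriers. Slc22a7, an organic anion transporter, reached 13 and 13.3 CPM in ASC i.p. rats 5 and 7, against 0.393 to 3.69 CPM in untreated rats, and its log2 fold change was 1.84 ± 0.94 (SE). Slc5a8, a sodium-coupled carrier of lactate and short-chain fatty acids, reached 16.3 and 7.71 CPM in the same rats against 0.524 to 6.07 CPM (1.27 ± 0.68). Cyp7b1, an oxysterol hydroxylase, did not share this order. It was lowest in rats 5 (11 CPM) and 7 (11.9 CPM), which were below every untreated rat, and the other 4 ASC i.p. rats were above every untreated rat.

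**Figure D1:**
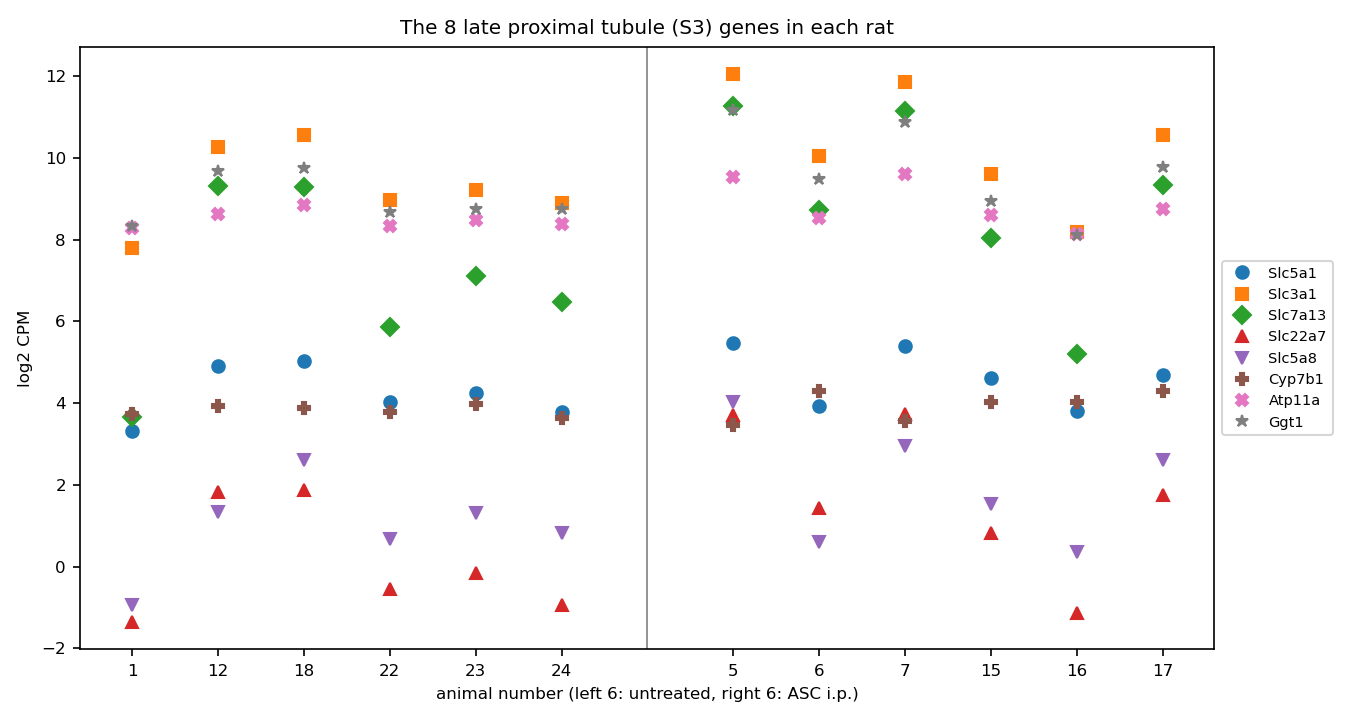
Log2 CPM (y axis) of the 8 S3 genes in each of the 6 untreated (left) and 6 ASC i.p. rats (right), by animal number (x axis). Slc3a1, Slc7a13, Ggt1 and Slc22a7 are highest in rats 5 and 7, and in both groups the rats spread over a wide range.

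Among rats numbered 12 or higher, the median log2 fold change of the S3 list was -0.00, and Slc3a1 (-0.01), Slc7a13 (0.03), Slc22a7 (0.01) and Ggt1 (-0.09) were all near 0. With animal number as a covariate in the fit of all rats the list median was 0.26, and with 1 surrogate variable 0.17. Leaving out 1 rat at a time kept it between 0.66 and 1.42. It was 0.74 when members under 10 counts in any rat were left out, 0.66 on the scale of log2(TPM + 1) and 0.78 on that of log2(TPM + 0.1). Among the untreated rats, rat 1, the only one numbered below 12, had the lowest S3 level (4.22).

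The early proximal tubule did not follow the late part as a whole. Of its 20 markers, 11 were higher and 9 lower after ASC i.p., with a median log2 fold change of 0.09. The median was -0.20 among rats numbered 12 or higher, the segment value farthest from 0 in those rats, and -0.06 to 0.20 on leaving out 1 rat. List levels were 6.88 ± 0.42 (SD, n = 6) after ASC i.p. and 6.85 ± 0.37 (SD, n = 6) in untreated rats. Members differed in direction, and examples of both directions are described next.

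Slc5a12, a lactate carrier of the early tubule, ranged from 27.7 to 57.4 CPM after ASC i.p. (median 47.0) and from 29.9 to 109 CPM in untreated rats (median 93.0), a log2 fold change of -0.85 ± 0.43 (SE). In 4 of the 6 untreated rats it was above every ASC i.p. rat, while rats 12 (29.9 CPM) and 18 (55.6 CPM) lay within the ASC i.p. range. Slc5a2 (SGLT2, the main glucose carrier of S1) was at 53.5 to 113 CPM against 55.8 to 229 CPM, with a log2 fold change of -0.74 ± 0.46 (SE). Both genes were low in untreated rat 12, and their ranges overlapped between groups.

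Slc34a3 (-0.72 ± 0.58, SE), a phosphate carrier, Slc6a19 (-0.68 ± 0.46), a carrier of neutral amino acids, and Slc4a4 (-0.61 ± 0.29), the basolateral bicarbonate carrier, also had negative log2 fold changes. In contrast Slc17a1 (1.07 ± 0.53), an anion and urate carrier, Slc5a10 (0.99 ± 0.59), a mannose and fructose carrier, and Hnf4a (0.61 ± 0.39), the transcription factor, had positive ones. For these 3 genes ASC i.p. rats 5 and 7 were again the highest of the 12 rats, and Slc17a1 was at -0.02 and Slc5a10 at 0.02 among rats numbered 12 or higher. Slc34a1, the most abundant marker at 683 TPM in untreated rats and the main phosphate carrier of the kidney, ranged from 569 to 2691 CPM after ASC i.p. and from 387 to 1971 CPM in untreated rats (log2 fold change 0.38 ± 0.40, and -0.19 among rats numbered 12 or higher). Lrp2, the endocytic receptor megalin, was at 513 to 2102 CPM and 524 to 1055 CPM (0.50 ± 0.35).

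The podocyte markers were the group with the most uniform lower values. All 15 were lower after ASC i.p., with a median log2 fold change of -0.34 (1.27-fold) and single values from -0.54 to -0.07, where 53.8% of all genes tested were lower. A single member, Plce1, had an unadjusted p below 0.05 (edgeR), against 3.89% of all genes tested, and no member passed after adjustment. The level of the list was 4.93 to 5.81 after ASC i.p. (5.28 ± 0.35, SD, n = 6) and 5.23 to 5.99 in untreated rats (5.62 ± 0.32, SD, n = 6). ASC i.p. rats 5 (4.93), 6 (5.0) and 7 (5.04) were below every untreated rat, and rats 15, 16 and 17 were within the untreated range.

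Podxl was at 99.5 to 212 CPM after ASC i.p. (median 143) and at 133 to 258 CPM in untreated rats (median 168), a log2 fold change of -0.36 ± 0.34 (SE). The 3 lowest of the 12 rats were again 6, 5 and 7, and the other 3 ASC i.p. rats were within the untreated range.

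Synpo (synaptopodin, which binds the actin of the foot processes) was at 20.2 to 51.4 CPM after ASC i.p. and 33.2 to 59.4 CPM in untreated rats (-0.38 ± 0.30). Plce1, a phospholipase whose loss causes nephrotic syndrome, had 4 of 6 ASC i.p. rats below every untreated rat, at 20 to 36.8 CPM against 25.3 to 39.6 CPM (-0.46 ± 0.22). Magi2, a scaffold of the slit diaphragm, had the most negative value (-0.54 ± 0.35) and Tcf21, a transcription factor, the one nearest 0 (-0.07 ± 0.22).

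The podocyte median was -0.11 among rats numbered 12 or higher. It was -0.06 with animal number as a covariate and 0.03 with 1 surrogate variable, and it stayed between -0.48 and -0.24 when 1 rat was left out. Vascular markers were low in the same rats 5, 6 and 7.

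Of 17 endothelial genes, 16 were lower after ASC i.p. (median log2 fold change -0.23). The level of the list was 5.18 to 5.38 in ASC i.p. rats 5, 6 and 7, 5.91 to 6.00 in ASC i.p. rats 15, 16 and 17, and 5.70 to 6.00 in untreated rats. Rats 5, 6 and 7 thus lay below every untreated rat, and rats 15, 16 and 17 within the untreated range. Eng (endoglin, a co-receptor of TGF-beta), the most abundant member per length, was at 103 to 242 CPM against 157 to 255 CPM in untreated rats (-0.23 ± 0.29), and Kdr (VEGF receptor 2) at 42.8 to 107 CPM against 67.6 to 115 CPM (-0.31 ± 0.35). Vwf (von Willebrand factor), the exception, was at 9.16 to 25.0 CPM after ASC i.p. and 8.05 to 11.1 CPM in untreated rats (0.75 ± 0.37), and was highest in rats 5 and 7.

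The smooth muscle list gave the same picture, with 9 of 10 members lower (median -0.17). ASC i.p. rats 5, 6 and 7 were at 5.21 to 5.34, below every untreated rat (5.58 to 6.12), and rats 15, 16 and 17 at 6.08 to 6.13, at the upper end. Tagln (transgelin), its most abundant member at 533 TPM in untreated rats, was at 141 to 402 CPM after ASC i.p. and 237 to 391 CPM in untreated rats (-0.23 ± 0.26). Among rats numbered 12 or higher, the list medians were 0.14 for endothelium and 0.25 for smooth muscle, both higher after ASC i.p.

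The summed TPM of the markers gave the same split within the ASC i.p. group. The 15 podocyte genes summed to 317, 310 and 338 TPM in ASC i.p. rats 5, 6 and 7 and to 615, 472 and 481 TPM in rats 15, 16 and 17, against 395 to 699 TPM in untreated rats. The endothelial genes summed to 371, 481 and 401 TPM in rats 5, 6 and 7 and to 771, 776 and 741 TPM in rats 15, 16 and 17, against 590 TPM or more in untreated rats. With the podocyte and vascular markers low in the same 3 rats, the part of each in the other was not tested.

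**Figure D2:**
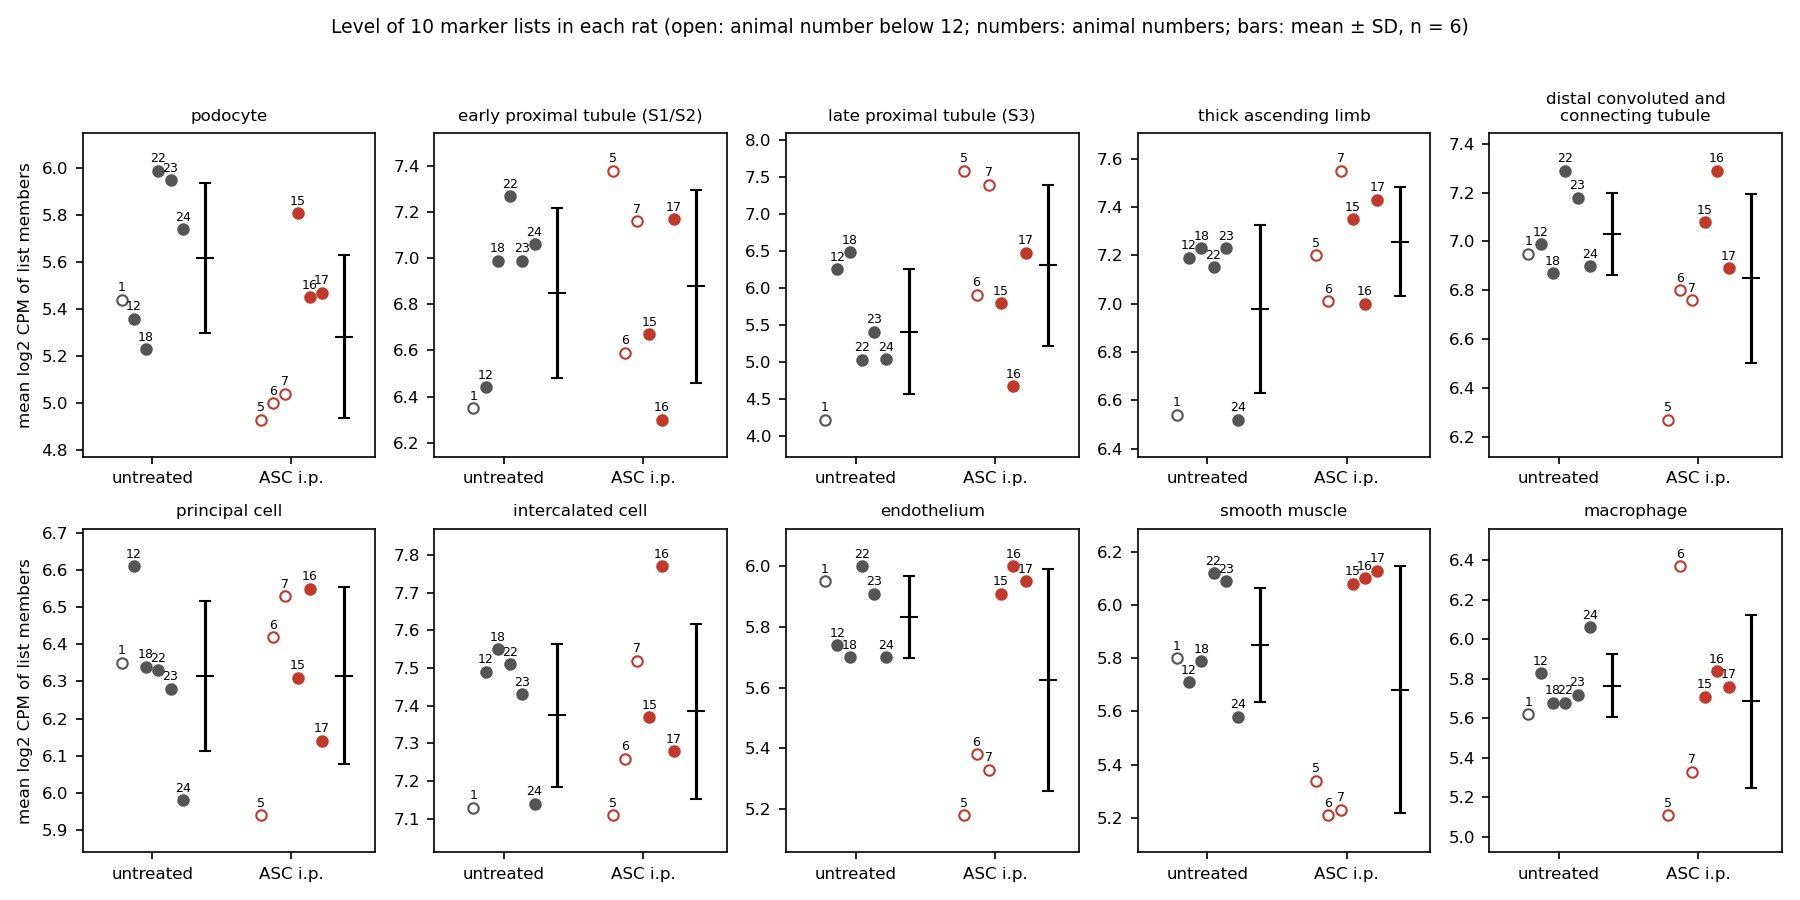
Mean log2 CPM (y axis) of 10 marker lists in each rat, with animal numbers beside the points, open points for numbers below 12 and bars for mean ± SD (n = 6). ASC i.p. rats 5, 6 and 7 are lowest in the podocyte, endothelium and smooth muscle panels, and rats 5 and 7 are highest for S3, while principal and intercalated cells overlap throughout.

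Further along the nephron the differences were small. The thick ascending limb had 10 of 14 markers higher after ASC i.p. and a median log2 fold change of 0.12. The level of the list was 7.26 ± 0.23 (SD, n = 6) after ASC i.p. and 6.98 ± 0.35 (SD, n = 6) in untreated rats, where rats 1 (6.54) and 24 (6.52) were the lowest of the 12. Umod was at 2359 to 5735 CPM after ASC i.p. (median 4000) and 1294 to 3445 CPM in untreated rats (median 3175), a log2 fold change of 0.55 ± 0.36 (SE). In 4 of the 6 ASC i.p. rats it was above every untreated rat, and rats 6 (3181 CPM) and 16 (2359 CPM) were within the untreated range.

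Slc12a1 (NKCC2, the furosemide-sensitive salt carrier) was at 637 to 1442 CPM against 381 to 1023 CPM (0.49 ± 0.37). Cldn10, a claudin of the sodium-permeable junction, had the largest value of the segment (0.95 ± 0.46), at 34.2 to 140 CPM against 21.7 to 70.4 CPM. Kcnj1 (ROMK, the potassium channel of the same cells) did not share this difference, at 445 to 715 CPM against 447 to 712 CPM (-0.02 ± 0.14). The list median was 0.12 as well among rats numbered 12 or higher, where Umod (0.23) and Cldn10 (0.29) were nearer to 0. With 1 surrogate variable the list median was 0.02, and on leaving out 1 rat it was 0.06 to 0.21.

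The distal convoluted and connecting tubule had 8 of 11 tested markers lower (median log2 fold change -0.24). The level of the list was 6.27, 6.80 and 6.76 in ASC i.p. rats 5, 6 and 7, below every untreated rat (6.87 to 7.29), and 6.89 to 7.29 in rats 15, 16 and 17. Slc12a3 (NCC, the thiazide-sensitive salt carrier) was at 948 to 2770 CPM after ASC i.p. (median 2026) and 1965 to 3077 CPM in untreated rats (median 2130), a log2 fold change of -0.24 ± 0.32 (SE). Rat 5 (948 CPM) and rat 7 (1564 CPM) were below every untreated rat and the other 4 were within the untreated range. Calb1 (calbindin, the calcium buffer of the connecting tubule) was at 197 to 668 CPM against 394 to 764 CPM (-0.46 ± 0.31), and rats 5, 6, 7 and 17 were below the untreated range. The list median among rats numbered 12 or higher was 0.05.

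Principal cells had 5 of 12 markers higher and 7 lower (median -0.03), with values from -0.16 to 0.26. Intercalated cells had 11 of 16 higher (median 0.03), with values from -0.15 to 0.14. Aqp2 was at 429 to 856 CPM after ASC i.p. and 474 to 1087 CPM in untreated rats. Slc26a4 (pendrin, the chloride and bicarbonate exchanger of the base-secreting cells) was at 353 to 684 CPM and 445 to 556 CPM. Levels of both lists overlapped between the groups. The thin limb (4 of 7 higher, median 0.02) held 1 extreme member, the urea transporter Slc14a2. It was at 18.2 CPM in ASC i.p. rat 17, at most 2.39 CPM in the other 5 ASC i.p. rats and at most 0.396 CPM in untreated rats, and its log2 fold change was 3.89 ± 1.88 over all rats and 1.93 without rat 17.

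**Figure D3:**
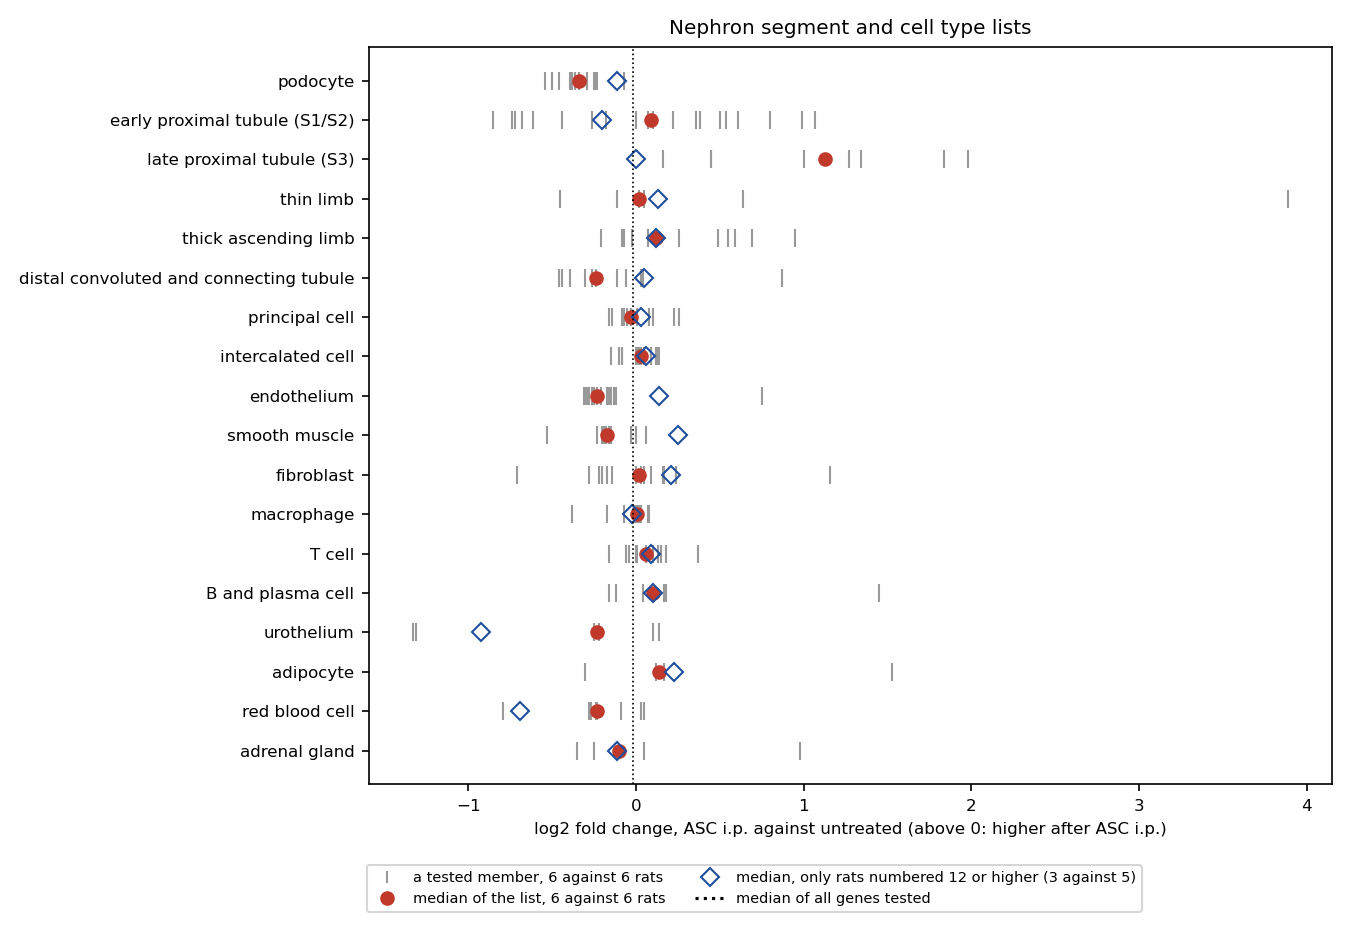
Log2 fold change (x axis) of ASC i.p. against untreated rats for 8 nephron segment and 10 cell type lists, with grey ticks for tested members, filled points for list medians and open diamonds for medians over rats numbered 12 or higher. S3 (1.13) and podocyte (-0.34) lie farthest from 0 among the segments, and the diamonds of both are nearer to 0 (-0.00 and -0.11).

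Leukocyte and stromal markers were close to no difference in their medians but not in single rats. Macrophages had 8 of 13 markers higher (median 0.01), T cells 7 of 11 (median 0.06) and fibroblasts 8 of 14 (median 0.02). With 1 surrogate variable these medians were 0.26, 0.29 and 0.27, and with animal number as a covariate 0.16, 0.22 and 0.14. The macrophage level was 5.11 to 6.37 after ASC i.p. and 5.62 to 6.06 in untreated rats. Rat 6 was above and rats 5 and 7 were below the untreated range. Lyz2 (lysozyme), the most abundant macrophage marker, was at 649 to 1693 CPM against 765 to 1195 CPM (0.03 ± 0.30). The T cell level was likewise highest in rat 6 (4.82) and lowest in rats 5 (3.54) and 7 (3.58).

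Of the 6 tested B and plasma cell markers, 1 had an unadjusted p below 0.05 (edgeR), against 3.89% of all genes tested. This was Mzb1, a chaperone of immunoglobulin assembly in plasma cells. It was at 3.25 to 28.3 CPM after ASC i.p. (median 12.2) and 3.14 to 7.84 CPM in untreated rats (median 4.35), with groups that overlapped through 1 rat. Its log2 fold change was 1.45 ± 0.47 (SE) and it was 1.84 among rats numbered 12 or higher, and 5 of 6 ASC i.p. rats, all but rat 5, were above every untreated rat. The B cell markers Cd79b (0.17 ± 0.40) and Ms4a1 (0.04 ± 0.40) were within 1 standard error of 0.

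Injury and cyst genes did not stand apart from the background. Of 20 tubular injury genes 9 were higher and 11 lower (median -0.03). Spp1 (osteopontin), the most abundant at 10281 TPM in untreated rats, was at 7142 to 12394 CPM after ASC i.p. and 7801 to 13855 CPM in untreated rats (-0.11 ± 0.18). Havcr1 (KIM-1, made by injured proximal tubule cells) was at 90.1 to 379 CPM against 95.2 to 284 CPM (0.21 ± 0.34), and its value was -0.08 without ASC i.p. rat 6 and -0.61 among rats numbered 12 or higher. Vim (vimentin) was the lowest member (-0.33 ± 0.16), at 504 to 675 CPM against 649 to 938 CPM, and 5 ASC i.p. rats were below every untreated rat.

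Of 17 genes of the inversin compartment and of cystic disease, 6 were higher and 11 lower (median -0.03). Nek8 (-0.08 ± 0.09), the kinase that binds SamCystin, Pkd1 (-0.10 ± 0.15) and Pkd2 (-0.06 ± 0.05), the polycystins, were near 0. Bicc1, an RNA-binding partner of SamCystin, was at 91.0 to 132 CPM after ASC i.p. (median 122) and 102 to 177 CPM in untreated rats (median 154), a log2 fold change of -0.32 ± 0.15 (SE) with overlapping ranges.

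Energy metabolism genes differed little per gene but in the same direction in nearly all members. All 33 tested subunits of complex I (median 0.20), all 38 of complexes II to V (0.19) and all 22 citrate cycle genes (0.17, 4 of them shared with complex II) were higher after ASC i.p., as were 21 of 23 genes of fatty acid oxidation (0.27). No member passed the adjusted test. The background is 46.2% of genes higher, with a median of -0.014. The complex I level was 7.31, 7.07 and 7.28 in ASC i.p. rats 5, 6 and 7, above every untreated rat (6.60 to 7.06), and 6.80 to 6.98 in rats 15, 16 and 17, within the untreated range. The same 3 rats were above every untreated rat for complexes II to V (8.61, 8.37 and 8.56 against at most 8.36). On the scale of log2(TPM + 1), where the median of all genes was -0.098, the medians were 0.10 for complex I and for complexes II to V, 0.07 for the citrate cycle and 0.15 for fatty acid oxidation. Cox8a, a subunit of cytochrome oxidase, was at 576 to 938 CPM after ASC i.p. (median 664) and 463 to 693 CPM in untreated rats (median 583), a log2 fold change of 0.30 ± 0.17 (SE).

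Fatty acid oxidation had its highest levels in the rats with the highest S3 levels. Rats 5 (7.27) and 7 (7.16) were above the untreated range of 6.42 to 6.80, and the other 4 ASC i.p. rats (6.43 to 6.73) were within it. Ehhadh, a peroxisomal enzyme, had the largest value (0.56 ± 0.36), at 47.9 to 176 CPM against 39.4 to 86.3 CPM. Acadm, the medium-chain acyl-CoA dehydrogenase, was at 289 to 679 CPM against 252 to 385 CPM (0.46 ± 0.27). Among rats numbered 12 or higher the medians were 0.01 for fatty acid oxidation and 0.04 each for complex I, for complexes II to V and for the citrate cycle. With 1 surrogate variable fatty acid oxidation was at 0.04, complex I at 0.07 and the citrate cycle at 0.03. With animal number as a covariate they were at 0.11, 0.07 and 0.07. Leaving out 1 rat gave 0.15 to 0.34 for fatty acid oxidation. With the level of the early proximal tubule list as a covariate, fatty acid oxidation was at 0.24, complex I at 0.19 and the citrate cycle at 0.16, while S3 was at 0.82. The early proximal tubule level hardly differed between the groups (6.88 after ASC i.p. and 6.85 in untreated rats). The small shifts with this covariate therefore do not show whether the differences go with proximal tubule content. The S3 level itself was not used as a covariate.

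Glycolysis (12 of 16 higher, median 0.08, and -0.01 with log2(TPM + 1)) and gluconeogenesis (6 of 10 higher, median 0.05) were nearer to 0. Fbp1 (fructose bisphosphatase), an enzyme of gluconeogenesis in the proximal tubule, was at 113 to 677 CPM after ASC i.p. and 99.8 to 270 CPM in untreated rats (0.78 ± 0.43). Leaving out 1 rat gave 0.42 to 0.95 for Fbp1, which was -0.03 among rats numbered 12 or higher. The gluconeogenesis median was -0.04 in those rats and -0.04 with log2(TPM + 1). Cycs (cytochrome c), listed with apoptosis and also part of the respiratory chain, was at 429 to 1716 CPM against 380 to 729 CPM (0.86 ± 0.39), which was 0.06 among rats numbered 12 or higher. Apoptosis genes as a whole had 11 of 24 members higher (median -0.01).

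Matrix and signalling lists had mostly lower members. Basement membrane and matrix genes were lower in 19 of 21 (median -0.13), TGF-beta signalling in 21 of 23 (-0.17) and cyclic AMP synthesis and breakdown in 20 of 24 (-0.09). Of all genes tested, 53.8% were lower. With 1 surrogate variable the medians were -0.04 for matrix, -0.04 for TGF-beta and -0.03 for cyclic AMP. The cyclic AMP level was 4.78 to 4.98 in ASC i.p. rats 5, 6 and 7, below every untreated rat (5.12 to 5.41), and 5.22 to 5.34 in rats 15, 16 and 17. For TGF-beta signalling rats 5 (5.77) and 7 (6.00) were below every untreated rat (6.08 to 6.44). Thbs1 (thrombospondin 1, an activator of latent TGF-beta) was at 121 to 317 CPM after ASC i.p. (median 208) and 194 to 616 CPM in untreated rats (median 331), a log2 fold change of -0.76 ± 0.29 (SE). Col4a1, a chain of basement membrane collagen, was at 591 to 814 CPM against 722 to 1446 CPM (-0.38 ± 0.19). Their ranges overlapped, and untreated rats 1, 23 and 24 had the highest summed TPM of the matrix list (1247, 1084 and 1069).

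Ltbp2 (-0.52 ± 0.25) and Tgfb2 (-0.49 ± 0.24), a binding protein and a ligand of the TGF-beta family, were the lowest of the TGF-beta list. Pde4d, which breaks down cyclic AMP, had a log2 fold change of -0.46 ± 0.20, at 4.78 to 9.92 CPM against 8.45 to 14.6 CPM. Among rats numbered 12 or higher the list medians were 0.02 for matrix, -0.05 for TGF-beta and 0.01 for cyclic AMP. Pde4d (-0.40) was close to its value over all rats, whereas Thbs1 (-0.28) and Ltbp2 (-0.20) were nearer to 0.

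Cell division (7 of 24 higher, median -0.06), interferon response (4 of 21 higher, -0.09), MHC and antigen presentation (8 of 14 higher, 0.02) and cytokines, chemokines and NF-kB (8 of 22 higher, -0.03) had medians within 0.1 of 0. Cxcl9, a chemokine induced by interferon gamma, was the lowest cytokine gene, at 1.93 to 3.22 CPM against 2.43 to 5.12 CPM (-0.59 ± 0.29).

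**Figure D4:**
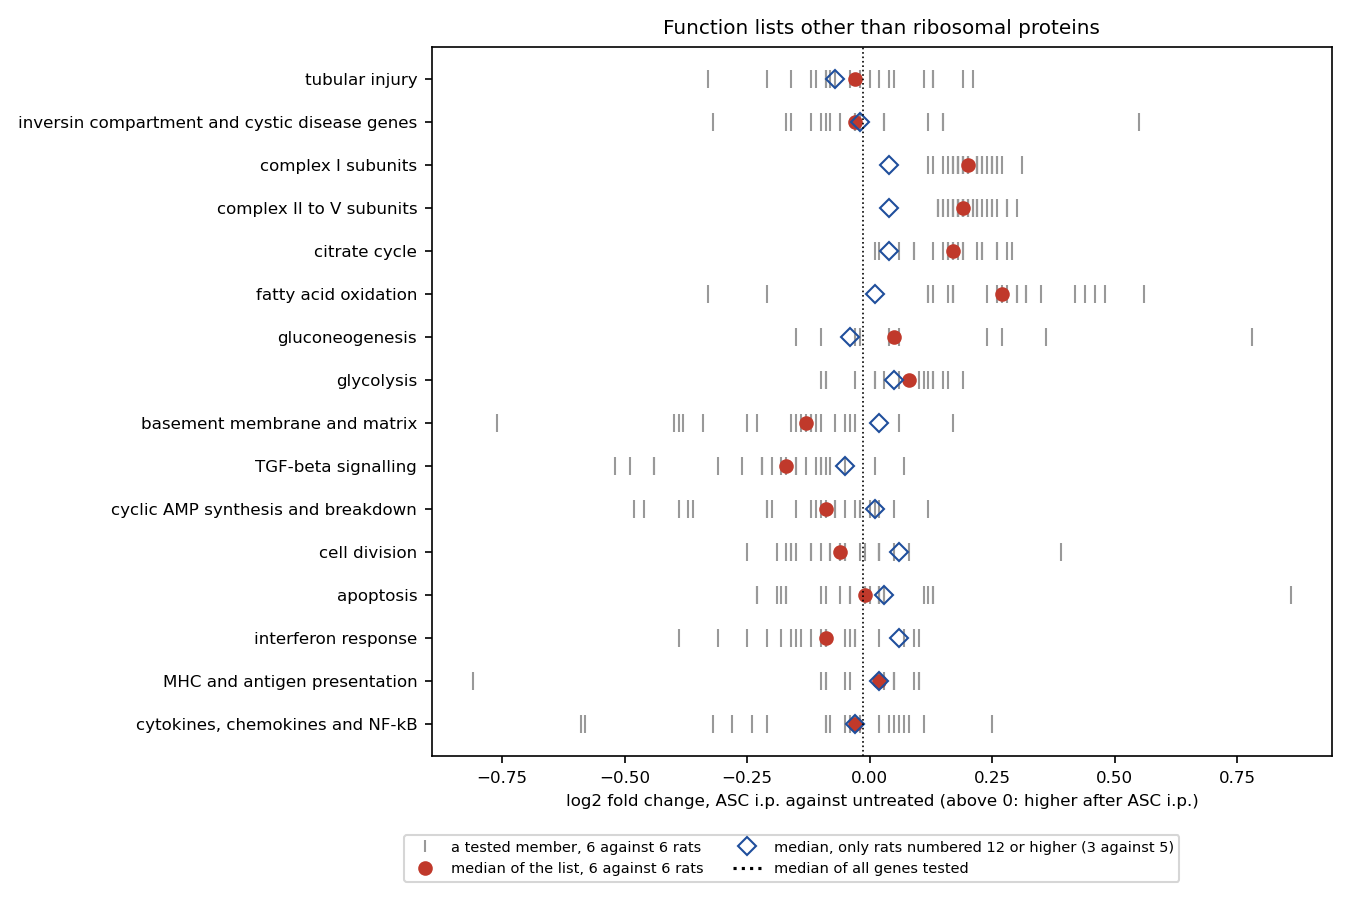
Log2 fold change (x axis) of ASC i.p. against untreated rats for 16 function lists, with grey ticks for tested members, filled points for list medians and open diamonds for medians over rats numbered 12 or higher. Respiratory chain, citrate cycle and fatty acid oxidation lie to the right (0.17 to 0.27) and matrix and TGF-beta signalling to the left (-0.13 and -0.17), and all of their diamonds lie between -0.05 and 0.04.

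A second description, which needs no model, counted the genes whose 6 ASC i.p. rats all lay on one side of the 6 untreated rats. There were 18 such genes (0.14% of those tested), 2 higher (0.0155%) and 16 lower (0.124%). With 6 and 6 rats, chance alone may separate as many genes or more, which was not tested. None of them passed the adjusted test, where the 11 named below each had an adjusted p of 0.771 (edgeR, quasi-likelihood test, Benjamini-Hochberg).

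Aplnr, the receptor of apelin on endothelium, was at 16 to 29.5 CPM after ASC i.p. (median 27.0) and 32.3 to 48.8 CPM in untreated rats (median 36.1), a log2 fold change of -0.58 ± 0.18 (SE). Rat 7 was the lowest ASC i.p. rat and untreated rat 1 the highest of all. The value was -0.35 among rats numbered 12 or higher.

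Cldn14, a claudin that limits calcium uptake in the thick ascending limb, had the smallest unadjusted p of all genes tested. It was at 0.727 to 1.27 CPM after ASC i.p. (median 1.04) and 1.35 to 2.23 CPM in untreated rats (median 1.55), a log2 fold change of -0.71 ± 0.18 (SE) and of -0.93 among rats numbered 12 or higher. The gap between the groups was narrow, from 1.27 CPM in ASC i.p. rat 6 to 1.35 CPM in untreated rat 23.

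Atp2b3, a calcium pump of the plasma membrane, was at 2.93 to 4.30 CPM after ASC i.p. (median 3.63) and 4.30 to 6.32 CPM in untreated rats (median 4.98), a log2 fold change of -0.54 ± 0.14 (SE). ASC i.p. rat 6 and untreated rat 18 met at 4.30 CPM after rounding. Ocrl, the inositol phosphatase mutated in Lowe syndrome of the proximal tubule, differed by less but with little spread, at 17.4 to 20.5 CPM against 21 to 22.3 CPM (-0.21 ± 0.07).

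Atl1, a GTPase that shapes the endoplasmic reticulum (-0.50 ± 0.15), Ankrd16, an ankyrin repeat protein (-0.42 ± 0.13), Airim (-0.55 ± 0.18) and Hrk, a BH3-only activator of apoptosis (-0.56 ± 0.20), completed the lower genes with the smallest p. Their medians were 2.85, 7.02, 1.51 and 1.98 CPM after ASC i.p. and 4.06, 8.66, 2.17 and 2.79 CPM in untreated rats. With a median of at most 4.06 CPM in either group, few reads stand behind the values of Atl1, Airim, Hrk, Cldn14 and Cd80. Cd80, a co-stimulatory molecule of antigen-presenting cells (-0.81 ± 0.28), named here after its values were seen, also belonged to the 16, at 0.690 to 1.27 CPM after ASC i.p. and 1.36 to 2.55 CPM in untreated rats.

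The higher genes were Mettl13, a methyltransferase of elongation factor 1 alpha, and Pef1, a calcium-binding protein. Mettl13 was at 31.5 to 39.5 CPM after ASC i.p. (median 34.2) and 28.9 to 30.7 CPM in untreated rats (median 29.3), a log2 fold change of 0.25 ± 0.08 (SE). Pef1 was at 82.3 to 97.7 CPM against 69.4 to 81.5 CPM (0.18 ± 0.07). Both were highest in rats 5 and 7. With RLE size factors 18 genes did not overlap (5 higher, 13 lower), of which 15 were among the 18 above, while with the deposited TPM values there were 2 higher and 21 lower genes, of which 5 were shared.

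**Figure D5:**
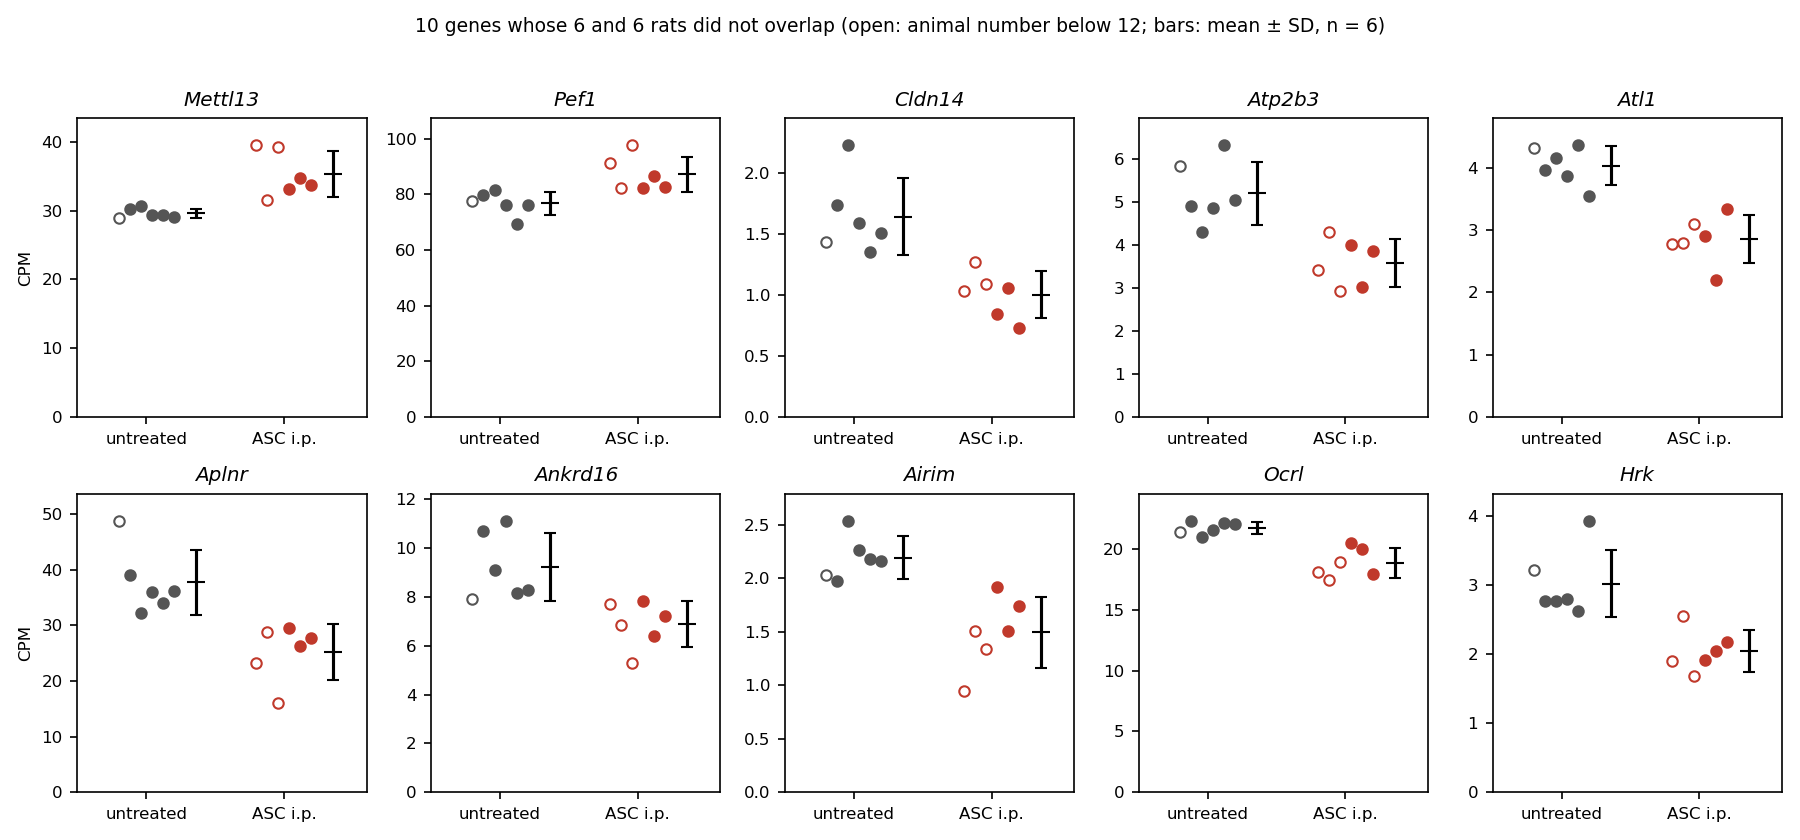
CPM (y axis) in each rat of the 10 named genes whose groups did not overlap, with open points for animal numbers below 12 and bars for mean ± SD (n = 6). Mettl13 and Pef1 are higher and the other 8 lower after ASC i.p., with narrow gaps between the groups for Cldn14 and Atp2b3.

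The genes with the largest rises had their highest values in a few rats. Cyp1a1, the xenobiotic-metabolizing enzyme induced through the aryl hydrocarbon receptor, had a log2 fold change of 2.96 ± 1.34 (SE), which was 1.03 without ASC i.p. rat 7. It was at 171 CPM in ASC i.p. rat 7 and 25.7 CPM in rat 5, with a median of 8.50 CPM in the group, and at 0.262 to 13.3 CPM in untreated rats. Cyp2c11, a male-specific cytochrome P450 (2.77 ± 1.18), and Rbp4, the plasma carrier of retinol (2.37 ± 1.23), were likewise highest in rats 5 and 7. Rbp4 was at 133 and 170 CPM in these rats and at 0.0655 to 39.9 CPM in untreated rats. Their values were -0.63 (Cyp1a1), -0.00 (Cyp2c11) and -0.17 (Rbp4) among rats numbered 12 or higher. The olfactory receptor genes Or2n1e (2.38 ± 1.24) and Or2n1el1 (2.36 ± 1.24), close copies whose reads may be split between them, were at most 8.55 CPM.

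Among the lower genes, Apol7b (-3.63 ± 1.61), a member of the apolipoprotein L family with close copies, was listed at 0 in 5 of 6 ASC i.p. rats and in untreated rats 12 and 23. Its fold rests on ASC i.p. rat 15 (4.91 CPM), without which no fold is given, and it was at -2.15 among rats numbered 12 or higher. Rpl38 (-2.71 ± 0.99) and Rpl10a (-1.65 ± 1.55) are ribosomal protein genes with many pseudogenes, so that their counts are uncertain. Rpl38 was at 0 CPM in ASC i.p. rats 7, 15, 16 and 17, at 5.41 and 5.71 CPM in rats 6 and 5 and at 5.57 to 14.7 CPM in untreated rats. In 5 of 6 ASC i.p. rats it was below every untreated rat, and leaving out 1 rat kept its log2 fold change between -3.49 and -2.43. Among rats numbered 12 or higher all 3 ASC i.p. rats were at 0, so that no fold is given. The median of the 76 ribosomal genes tested was 0.02, and Rpl41, the most abundant of them, was at 0.04 ± 0.15. Krt87, a hair keratin (-2.03 ± 1.26), and Ctxn3, a small membrane protein of kidney and brain (-1.36 ± 0.56), were at most 7.86 CPM in any of the 12 rats, with overlapping groups. Krt87 was at -1.23 without untreated rat 24 and -3.30 without ASC i.p. rat 15, and Ctxn3 at -0.76 without untreated rat 1 and -0.55 among rats numbered 12 or higher.

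Transcript length, estimated from the ratio of count to TPM, was related to the fold change over genes. The median log2 fold change was 0.040 in the 3217 shortest genes, -0.067 in the 3217 longest and 0.008 and -0.021 in the classes between them. The difference between the shortest and the longest class was positive in ASC i.p. rats 5 (0.20), 6 (0.21) and 7 (0.14) and in untreated rats 12 (0.12) and 18 (0.08). It was negative in ASC i.p. rat 15 (-0.17) and in untreated rats 22 (-0.15), 23 (-0.22) and 24 (-0.16), and within 0.02 of 0 in the other 3 rats. Rats of both groups were therefore found on both sides. Complex I subunits are short (median at the 3.6th percentile of length) and matrix genes long (94.5th percentile). With the length trend removed, the medians were 0.15 for complex I, -0.07 for matrix, -0.30 for podocyte and 1.12 for S3.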

How the data were processed

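Whole-kidney RNA was sequenced on a BGISEQ-500. The authors deposited estimated counts and TPM per rat Entrez gene, 1 file of each per rat. The submitters' processing notes name Trim Galore 0.6.4, kallisto 0.4.6 (version as written there) and build rn6, without their roles. The study's methods name a human transcript annotation package, although the deposited identifiers are those of rat genes.

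Symbols were found for 17179 of 17334 genes. Of the counts, 14.1% were not whole and were rounded. Counts of all 22 rats (4 groups) were fitted with edgeR 4.0.16 in R 4.3.3 by its quasi-likelihood test with TMM scaling, and ASC i.p. was contrasted with untreated. Of the genes, 4467 were under edgeR's low-count filter. Adjustment (Benjamini-Hochberg) was over 12867 genes and the threshold 0.05. Biological variation between rats was 22.6%. The log2 levels used a prior count of 2. Within groups, counts of any 2 rats differed beyond sampling noise. In simulated data for this comparison with 12816 genes tested, 74 of 99 genes changed by 1 on the log2 scale and 97 of 99 changed by 2 were recovered, with 6 false calls. The changed genes were picked at random and each gene was drawn independently, without the spread between rats that many genes share here. These rates therefore do not carry over to genes that vary strongly between rats, such as those of S3.

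The 35 lists (8 segment, 10 cell type, 17 function) and the comparison itself were chosen with earlier results of these data known, so that lists are described by counts and medians without a test. Named were, in each list, from the 3 most abundant members and the 2 with the largest fold change, the defining markers, up to 8 genes per direction that did not overlap and the 5 largest rises and falls with a mean TPM of at least 1. Further list members were named to show their list. DESeq2 1.42.0, limma 3.58.1 on log2(TPM + 1) and log2(TPM + 0.1), 1 surrogate variable (sva 3.50.0), covariates, filters and leaving out each rat were alternatives. The restriction to animal numbers of 12 or higher was chosen after seeing the data. Promoters are RefSeq GRCr8 and no coordinate of the deposited build was used. Some items of the lists are not reported here.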

Additional observations from a re-analysis of the deposited data

Results flagged for a closer look

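Of 112 groups of 6 rats examined, 9 held a rat far from the other 5 by Dixon's criterion. Chance alone may come near this share, which was not tested. All values are log2 CPM. For the urothelial list, ASC i.p. rat 7 was at 0.35 with the others between -1.01 and -0.65, and untreated rat 23 was at 1.26 with the others between -0.98 and -0.23. For cell division, ASC i.p. rat 7 was at 3.16 and the others between 3.64 and 3.75. For the interferon response, untreated rat 23 was at 6.37 and the others between 5.53 and 5.84. For the ribosomal proteins, ASC i.p. rat 6 was at 8.90 and the others between 8.30 and 8.51.

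The remaining flags fell on genes with few reads or close copies. Apol7b was at 2.34 in ASC i.p. rat 15 and at -2.71, the level of 0 counts, in the other 5. Rpl38 was at 2.52 in untreated rat 23 and between 3.50 and 3.90 in the others. Rpl10a was at 1.90 in ASC i.p. rat 5 and at 3.47 in untreated rat 1, with -2.71 in every other rat of both groups.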

How the results depend on the processing

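No gene passed adjustment under any of the alternatives, where the smallest adjusted p by edgeR, DESeq2 or limma was 0.265 (1 surrogate variable) to 1. The number of genes with an unadjusted p below 0.05 (500) was 778 with only the 12 rats in the fit, 321 with 1 surrogate variable, 221 with animal number as a covariate and 224 among rats numbered 12 or higher, and 218 (without ASC i.p. rat 5) to 1147 (without ASC i.p. rat 15) on leaving out 1 rat. It also moved by over 1.5 times without ASC i.p. rat 7 (226) or 16 (920) and without untreated rat 1 (302), 18 (835), 23 (288) or 24 (296). Of the 500, 225 were higher and 275 lower, against 291 and 229 with RLE size factors, 463 and 315 with only the 12 rats, 450 and 273 with DESeq2 and 305 and 304 without the filter. With log2(TPM + 1) 36 were higher and 454 lower, and with log2(TPM + 0.1) 40 and 432, where the median of all genes was -0.098 and -0.111. The podocyte median was 0.03 with 1 surrogate variable. Among rats numbered 12 or higher the medians were -0.00 for S3 and 0.05 for the distal convoluted and connecting tubule, and Cyp1a1 (-0.63), Cyp2c11 (-0.00), Or2n1e (-2.58) and Rbp4 (-0.17) changed sign. Rpl10a, counted in 1 rat of each group, ranged from -7.63 to 5.97 on leaving out 1 rat and changed sign without untreated rat 1. The causes were not tested. Of 840 list medians under other settings 14 moved by more than 1 SD of the list level, and of 3592 values of 157 named members 267 had the other sign. This SD is a wide measure, at 0.98 for S3 and 0.19 for complex I. The S3 median of 0.17 with 1 surrogate variable (from 1.13) was thus not counted as moved. Nor was the complex I median of 0.04 among rats numbered 12 or higher (from 0.20). By list, the median had the other sign in 0 (complex I) to 11 (macrophage) of 24 settings. No paired analysis was possible because each animal number occurs once, so that the groups share none. Depth limits the genes near 1 CPM, and counting error is only part of the spread.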

Other observations

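The red blood cell list, which reads blood left in the unperfused tissue, had 6 of 8 tested members lower after ASC i.p. (median log2 fold change -0.23), and without untreated rat 23 its median was 0.90. Hba-a1, an alpha globin, was at 112 to 600 CPM after ASC i.p. and 107 to 898 CPM in untreated rats, with the highest value in untreated rat 23. Globin genes are close copies whose reads may be split between them.

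Adipocyte markers were tested in 4 genes, of which 3 were higher (median 0.14). Cidec, a lipid droplet protein also made outside fat, was at 5.43 to 70.8 CPM after ASC i.p. and 3.54 to 23 CPM in untreated rats, a log2 fold change of 1.53 ± 0.71 (SE), which was 0.26 among rats numbered 12 or higher. Adipoq (adiponectin), the most abundant marker, was at 19.7 to 31.7 CPM and 15.8 to 31.7 CPM (0.12 ± 0.19). Urothelial markers had 4 of 6 tested members lower (median -0.23), but the median was 0.45 without untreated rat 23, -0.98 without ASC i.p. rat 7, 0.12 with only the 12 rats in the fit and -2.04 with 1 surrogate variable, so that no direction can be given. Adrenal markers had 2 of 4 lower (median -0.10).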
